A study of Mus musculus with 9 samples.

Results

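The genes described here encode the subunits of the mitochondrial respiratory chain and of ATP synthase that are made from the nuclear genome, complexes I to V. They were chosen by symbol, as the gene names that begin with Nduf (the a, b, c, s and v series), Sdh, Uqcr, Cox4 to Cox8 and Atp5, and 83 of the 23444 genes in the tables matched. Of these, 37 belong by name to complex I, 4 to complex II, 8 to complex III, 17 to complex IV and 17 to complex V. Names and functions do not match in every case: Ndufa4 is now regarded as a subunit of complex IV, and Atp5sl, now called Dmac2, is an assembly factor of complex I. The subunits made from the mitochondrial genome were not analysed here, since 0 rows carried a mitochondrial gene symbol.

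Liver RNA from C57Bl6 mice was sequenced in 3 groups of 3 libraries. The first group was aged (20 to 22 months) and ate chow containing PD-0332991 for 2 weeks before the livers were taken, at an amount that the labels give as 450 with the unit written mg/k. The second group was equally aged and untreated, and the third was young (2 months) and untreated. PD-0332991, also named palbociclib, inhibits CDK4 and CDK6, kinases of the cell cycle. The series title names Cdk4 and age-associated fatty liver. The labels give neither the sex nor whether a group's 3 libraries stand for 3 animals, and the tests therefore measure the scatter of these libraries alone, which may be technical. The deposited values are in TPM, a relative transcript abundance corrected for transcript length, and the depth behind them is unknown.

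Complex I passes electrons from NADH, and complex II from succinate, to coenzyme Q. Complex III passes them on to cytochrome c, complex IV hands them to oxygen, and complex V uses the proton gradient so built to make ATP. Nearly all subunits are nuclear genes that must be supplied in step with the few mitochondrial ones, and the transcription factors NRF1, GABP, YY1 and the estrogen-related receptors are known for binding many of their promoters. Hepatocytes are rich in mitochondria and use this chain to burn fatty acids. Several complex IV subunits exist as a form found in most tissues, liver included, and a form known from heart and skeletal muscle, testis or lung.

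Promoter windows of 300 bases, from 250 before to 50 after the annotated start, were available from RefSeq (GRCm38.p6) for 68 of the 83 genes, in 74 windows. A total of 4 are shown, read 5′ to 3′ on the strand of the gene. Cox8a and Cox8b are shown because they encode forms of the same subunit at opposite ends of the range of levels, and Sdha and Uqcrc1 because their treated livers lay wholly below the aged untreated ones. They lie at chr19:7217567-7217866, minus strand (Cox8a), chr7:140900397-140900696, minus strand (Cox8b), chr13:74350191-74350490, minus strand (Sdha) and chr9:108936398-108936697, plus strand (Uqcrc1). Capitals mark matches, on either strand, to 4 motifs. NRF1 was searched as GCGCANGCG and YY1 as AAGATGGC. The ETS motif, bound by GABP, was searched as CCGGAAG. The TATA box was searched by the letters TATAAA.
Cox8a: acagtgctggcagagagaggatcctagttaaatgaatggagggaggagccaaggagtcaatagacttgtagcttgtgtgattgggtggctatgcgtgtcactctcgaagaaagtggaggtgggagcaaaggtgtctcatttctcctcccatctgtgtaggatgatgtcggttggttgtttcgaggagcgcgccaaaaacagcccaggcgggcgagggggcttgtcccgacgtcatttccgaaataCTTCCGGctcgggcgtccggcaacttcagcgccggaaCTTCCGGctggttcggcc
Cox8b: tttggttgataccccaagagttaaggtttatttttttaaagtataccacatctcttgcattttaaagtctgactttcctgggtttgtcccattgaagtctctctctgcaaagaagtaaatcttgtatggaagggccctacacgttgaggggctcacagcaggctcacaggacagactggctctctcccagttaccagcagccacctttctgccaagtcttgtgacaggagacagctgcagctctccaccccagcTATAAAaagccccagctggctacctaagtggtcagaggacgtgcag
Sdha: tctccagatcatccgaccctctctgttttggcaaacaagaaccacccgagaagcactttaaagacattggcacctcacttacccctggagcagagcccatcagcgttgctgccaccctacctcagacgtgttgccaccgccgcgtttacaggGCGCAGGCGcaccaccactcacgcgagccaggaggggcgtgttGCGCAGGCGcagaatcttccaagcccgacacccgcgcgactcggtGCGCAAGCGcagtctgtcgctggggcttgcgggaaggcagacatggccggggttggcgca
Uqcrc1: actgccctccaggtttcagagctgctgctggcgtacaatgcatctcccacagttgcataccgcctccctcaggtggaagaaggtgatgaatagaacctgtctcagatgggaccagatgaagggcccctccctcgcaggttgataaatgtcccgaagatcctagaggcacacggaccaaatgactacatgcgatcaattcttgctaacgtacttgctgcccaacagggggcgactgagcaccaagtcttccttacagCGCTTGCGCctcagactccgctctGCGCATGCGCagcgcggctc
The Sdha window held 3 NRF1 matches and the Uqcrc1 window also 3, of which a pair on opposite strands overlap. Other genes whose treated livers lay wholly below the aged untreated ones differed in this. The window of Cox6a1 held the NRF1 motif, and those of Ndufv1, Cox5a and Atp5b did not. No window was available for Sdhc, Cox4i1 and Atp5a1. The Cox8a window held 2 ETS matches and the Cox8b window 1 match to TATAAA, which lay just after the annotated start and not before it. The Uqcrc1 matches and the second Cox8a match also lay after the annotated start.

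Across the 74 windows of these genes, 28.4% held the NRF1 motif, against 6.25% of all 32851 RefSeq windows of the same length. The ETS motif stood in 21.6% of their windows, against 8.86% of all, and the YY1 motif in 16.2%, against 2.75% of all. AAGGTCA, the motif of the estrogen-related receptors, stood in 10.8%, against 4.72% of all windows. GGGCGG, the GC box bound by Sp1, stood in 37.8%, against 35.7% of all, and the TATA box in 10.8%, against 13.6% of all. The median GC content was 57.5% in their windows and 52.7% in all. No motif contains another, though matches of different motifs can share bases. A match describes the letters and is not a site of binding, and the windows were not matched for GC content.

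The subunit genes were among the most abundant in the liver tables. The 83 genes together made up 4.05% to 4.22% of the listed TPM in the treated, 4.06% to 4.70% in the aged untreated and 4.15% to 4.47% in the young libraries. Of them, 66 had a mean over the 9 libraries above 100 TPM and 17 above 500 TPM, and 52 ranked among the 500 most abundant genes. Summed TPM was divided among the complexes with 30.2% in complex I, 2.64% in complex II, 15.5% in complex III, 23.5% in complex IV and 28.2% in complex V. The median gene of complex I, the complex with the most genes, had 171 TPM. Those of complexes II, III and V had 150.1, 366 and 349 TPM, and that of the 11 complex IV genes tested 607 TPM.

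The highest level was that of Uqcrq, a small subunit of complex III, which had 1236, 1286 and 1240.4 TPM in treated, 1215, 1170.3 and 1423 TPM in aged untreated livers and 1179, 1412 and 999 TPM in young livers. Cox7c (782 TPM over all 9 libraries), Atp5e (785 TPM), which encodes the epsilon subunit of ATP synthase, and Ndufa4 (744 TPM) led complexes IV, V and I, and Sdhb, the iron-sulfur subunit, led complex II with 195 TPM. All of these are short proteins apart from Sdhb. The large catalytic subunits stood lower: Ndufs1, the iron-sulfur protein of complex I with 727 residues, had 36.3 TPM, and Sdha, the flavoprotein of complex II with 664 residues, had 128 TPM. The α and β subunits of the ATP synthase head, Atp5a1 and Atp5b, had 371 and 523 TPM. At the low end of the genes tested were Ndufa4l2 (1.92 TPM), a homologue of Ndufa4 known to be induced by hypoxia, Atp5s (2.41 TPM), Cox7a1 (8.05 TPM) and Atp5sl (11.1 TPM).

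**Figure D1:**
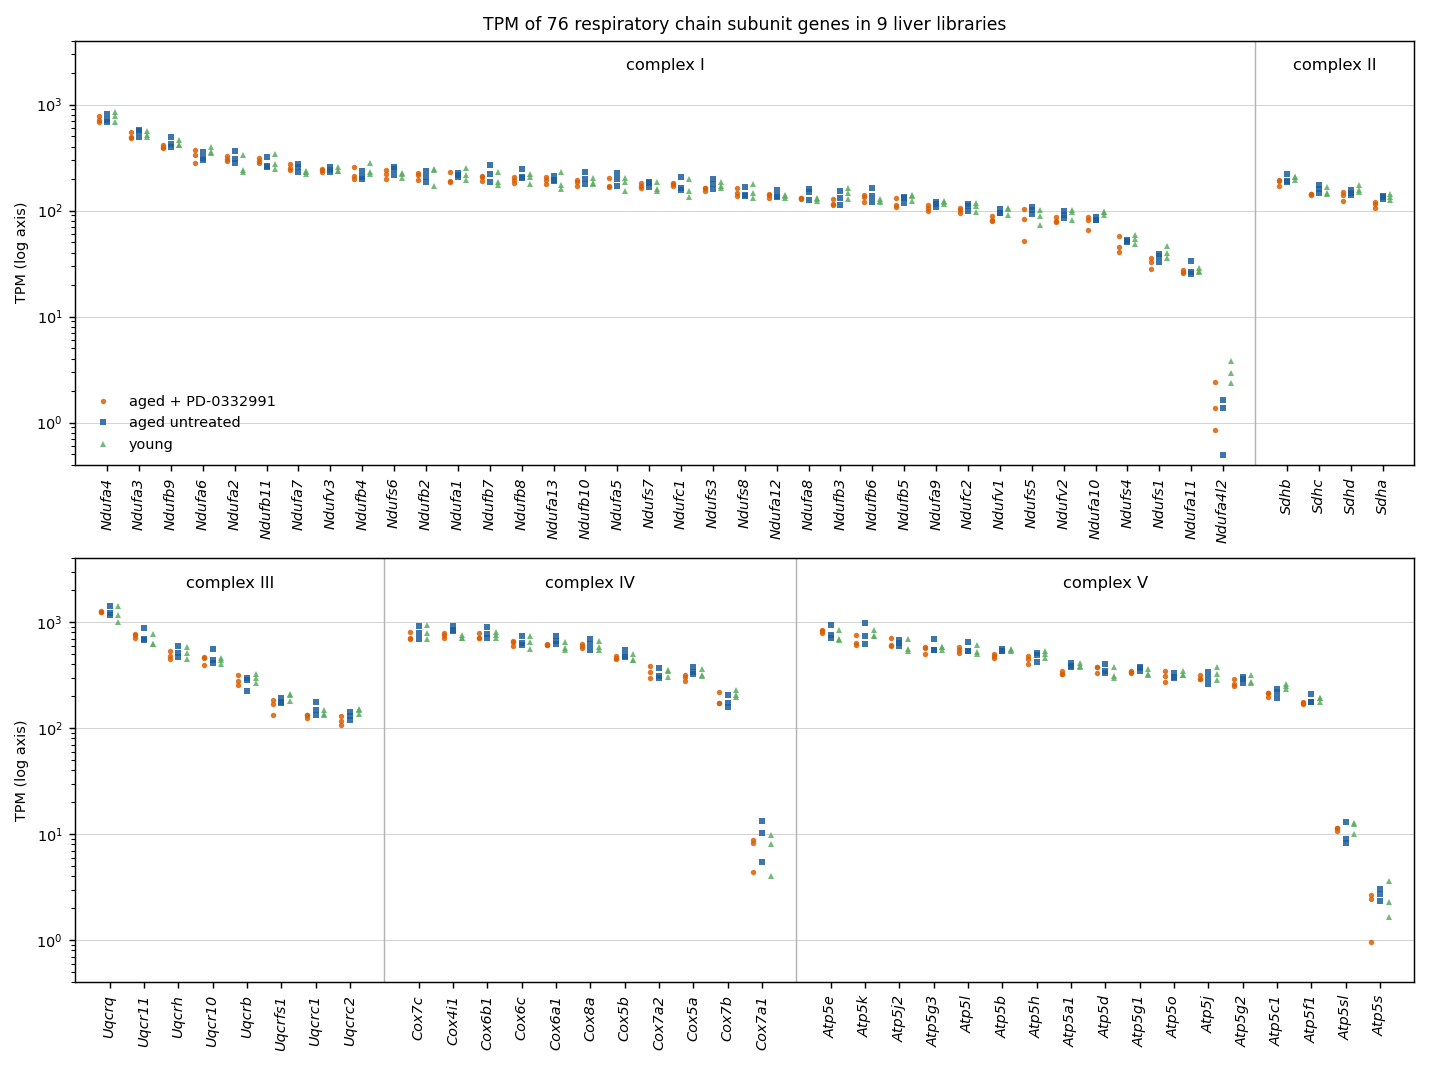
TPM on a log axis of 76 of the 77 subunit genes tested, by complex and in order of mean level, with a point for each of the 3 treated (orange), 3 aged untreated (blue) and 3 young (green) liver libraries. Most genes lie between 25 and 1000 TPM in every library and the groups lie on top of each other, while Ndufa4l2, Cox7a1, Atp5sl and Atp5s lie far below the rest.

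These levels varied little. Over the 9 libraries the coefficient of variation of the 77 genes tested had a median of 9.99%, from 4.04% for Ndufv3 to 55.3% for Ndufa4l2, and 73 of them were under 16%. The median over all 10161 genes tested was 16.5%. The sets were not matched for abundance.

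Where a complex IV subunit has a muscle, testis or lung form, the listed TPM was nearly all that of the common one. A value of 0 in these tables can be a failed estimate, since all 9 liver libraries give 0 for Alb, which encodes albumin, the main secreted protein of hepatocytes, so a gene at 0 is described here only as listed at 0. The tables list 83 genes of which 6 did not reach 1 TPM in at least 3 libraries, and all 6 are such forms: Cox4i2, Cox6a2, Cox6b2, Cox7b2, Cox8b and Cox8c. Cox7b2 and Cox8c were listed at 0 in all 9 libraries. Cox4i2, the form known from lung, was listed at 0.585, 0 and 0 TPM in treated, 0.0698, 0 and 0 TPM in aged untreated livers and 0, 0.110 and 0 TPM in young livers. The common form Cox4i1 held at least 99.9% of the summed TPM of the pair in each library. Cox6a1, Cox6b1 and Cox8a held at least 99.9%, 99.8% and 99.7% of theirs.

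Cox8b, the heart and skeletal muscle form of subunit VIII, was listed at 1.49, 0 and 0.317 TPM in treated, 0.175, 0.763 and 0 TPM in aged untreated livers and 0.170, 0 and 0 TPM in young livers, while Cox8a had 574, 620.2 and 596 TPM in treated, 627, 545 and 699.8 TPM in aged untreated livers and 588, 659 and 553 TPM in young livers. Each group thus held libraries of Cox8b at or near 0. The 8 muscle markers examined, such as Ckm and Myh6, summed to at most 0.172 TPM in treated, 0.318 TPM in aged untreated and 0.305 TPM in young libraries, and Ckm, Myh2, Tnnt3 and Myh6 were listed at 0 throughout, with the limit on such values given above.

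Cox7a1, the form of subunit VIIa known from heart, muscle and brown fat, was the exception, with 8.21, 4.36 and 8.73 TPM in treated, 5.43, 10.4 and 13.3 TPM in aged untreated livers and 9.85, 4.03 and 8.16 TPM in young livers. It took 2.01% ± 0.502, 2.81% ± 0.900 and 2.19% ± 1.02 of the Cox7a1 and Cox7a2 sum in treated, aged untreated and young livers (SD, n = 3 each). The 3 groups overlapped. The 3 genes for the identical mature c subunit of the ATP synthase rotor were all used: Atp5g3 supplied 47.6% ± 2.34, 47.7% ± 2.66 and 48.0% ± 1.95 of their sum, Atp5g1 29.2% ± 0.171, 29.2% ± 2.27 and 27.9% ± 0.745, and Atp5g2 23.2% ± 2.33, 23.1% ± 1.19 and 24.1% ± 1.24, each in treated, aged untreated and young livers. The shares of Atp5g3 and Atp5g2 differed between groups by less than the SDs, while that of Atp5g1 was above the young value in treated livers by more than either SD, a difference that was not tested.

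**Figure D2:**
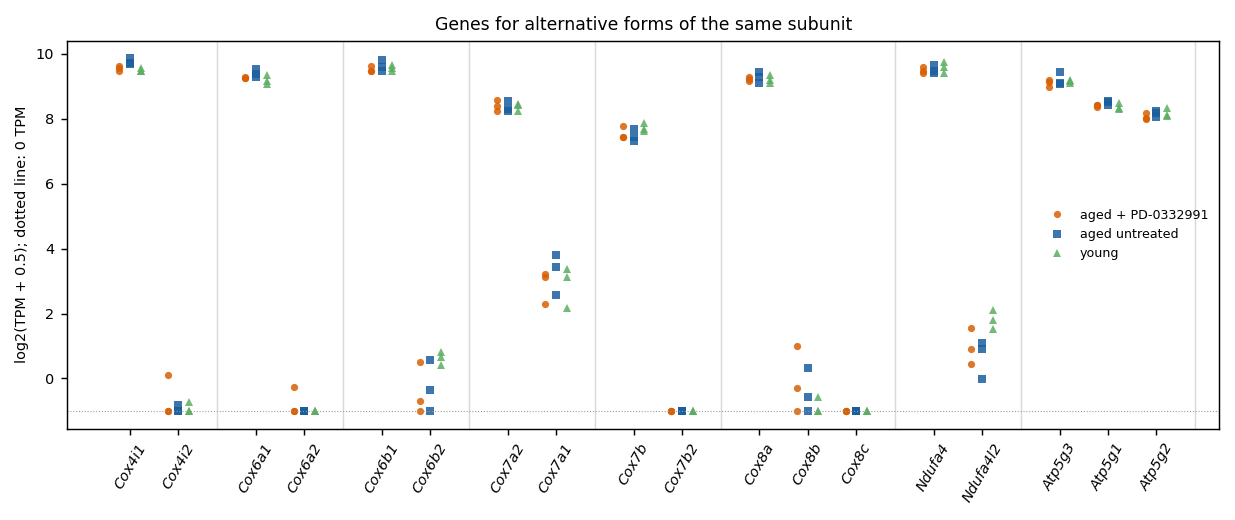
Level as log2(TPM + 0.5) of the genes that encode alternative forms of a subunit, with a point for each treated (orange), aged untreated (blue) and young (green) library and the dotted line at 0 TPM. In the complex IV families the common form lies far above the other form, which is near or at the dotted line except for Cox7a1, and the 3 Atp5g genes lie close together.

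Aged untreated livers were compared with young ones to see how age moved the chain. No subunit gene passed the test: 0 of 77 had an adjusted p under 0.05 in limma, where 1.1% of all genes tested did. At an unadjusted p under 0.05 there were 2 of 77, Ndufa4l2 and Cox4i1, against 15% of all genes. The median log2 fold change of the 77 genes was 0.02, beside -0.01 over all genes tested, with 41 genes above and 36 below 0. The medians were 0.02 for complex I, -0.02 for II, 0.07 for III, 0.06 for IV and -0.01 for V. For 69 of the 77 genes the 95% interval of the log2 fold change lay within 0.5 of 0, and for 75 within 1.

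The genes whose aged and young libraries did not overlap were few. Cox4i1, a subunit that spans the inner membrane beside the catalytic core of complex IV, was the only 1 of 77 with every aged library above every young one, where 8.82% of all genes tested were. It had 836, 819 and 931 TPM in aged untreated livers and 704, 762 and 714 TPM in young livers, a log2 fold change of 0.25 (SE 0.09, 95% interval 0.05 to 0.44, limma adjusted p = 0.239). In the other direction stood 2 of 77, Ndufa4l2 and Ndufa10, where 9.57% of all genes tested did. Ndufa4l2 had 1.38, 0.495 and 1.63 TPM in aged untreated livers and 2.96, 3.84 and 2.37 TPM in young livers (-1.14, SE 0.33, interval -1.88 to -0.41, limma adjusted p = 0.146), the largest difference of any subunit but at a level of only a few TPM. Ndufa10, an accessory subunit of complex I, had 81.2, 81.0 and 86.4 TPM in aged untreated livers and 96.8, 90.7 and 97.1 TPM in young livers (-0.19, limma adjusted p = 0.452).

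For the other 74 genes the aged untreated and young libraries overlapped. In complex I, Ndufa2 had 318 ± 44.3 TPM in aged untreated and 268 ± 54.7 TPM in young livers (SD, n = 3 each). In complex IV, Cox7b had 178 ± 23.2 TPM in aged untreated and 211 ± 18.0 TPM in young livers (-0.25), and Cox7a1 had the highest estimate (0.38) and the widest interval (-0.57 to 1.33). All complex II genes were close to 0, from -0.13 for Sdhd to 0.07 for Sdhc. In complex III the extremes were -0.16 for the core subunit Uqcrc2 and 0.15 for the small subunit Uqcr11, and in complex V -0.23 for Atp5sl and 0.14 for Atp5s. Without the third aged untreated library the median over the 77 genes was -0.04, and without the first young library -0.01, and it was -0.02 with array weights and -0.03 after quantile normalization. The sign of this median thus depends on single libraries and on the processing.

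**Figure D3:**
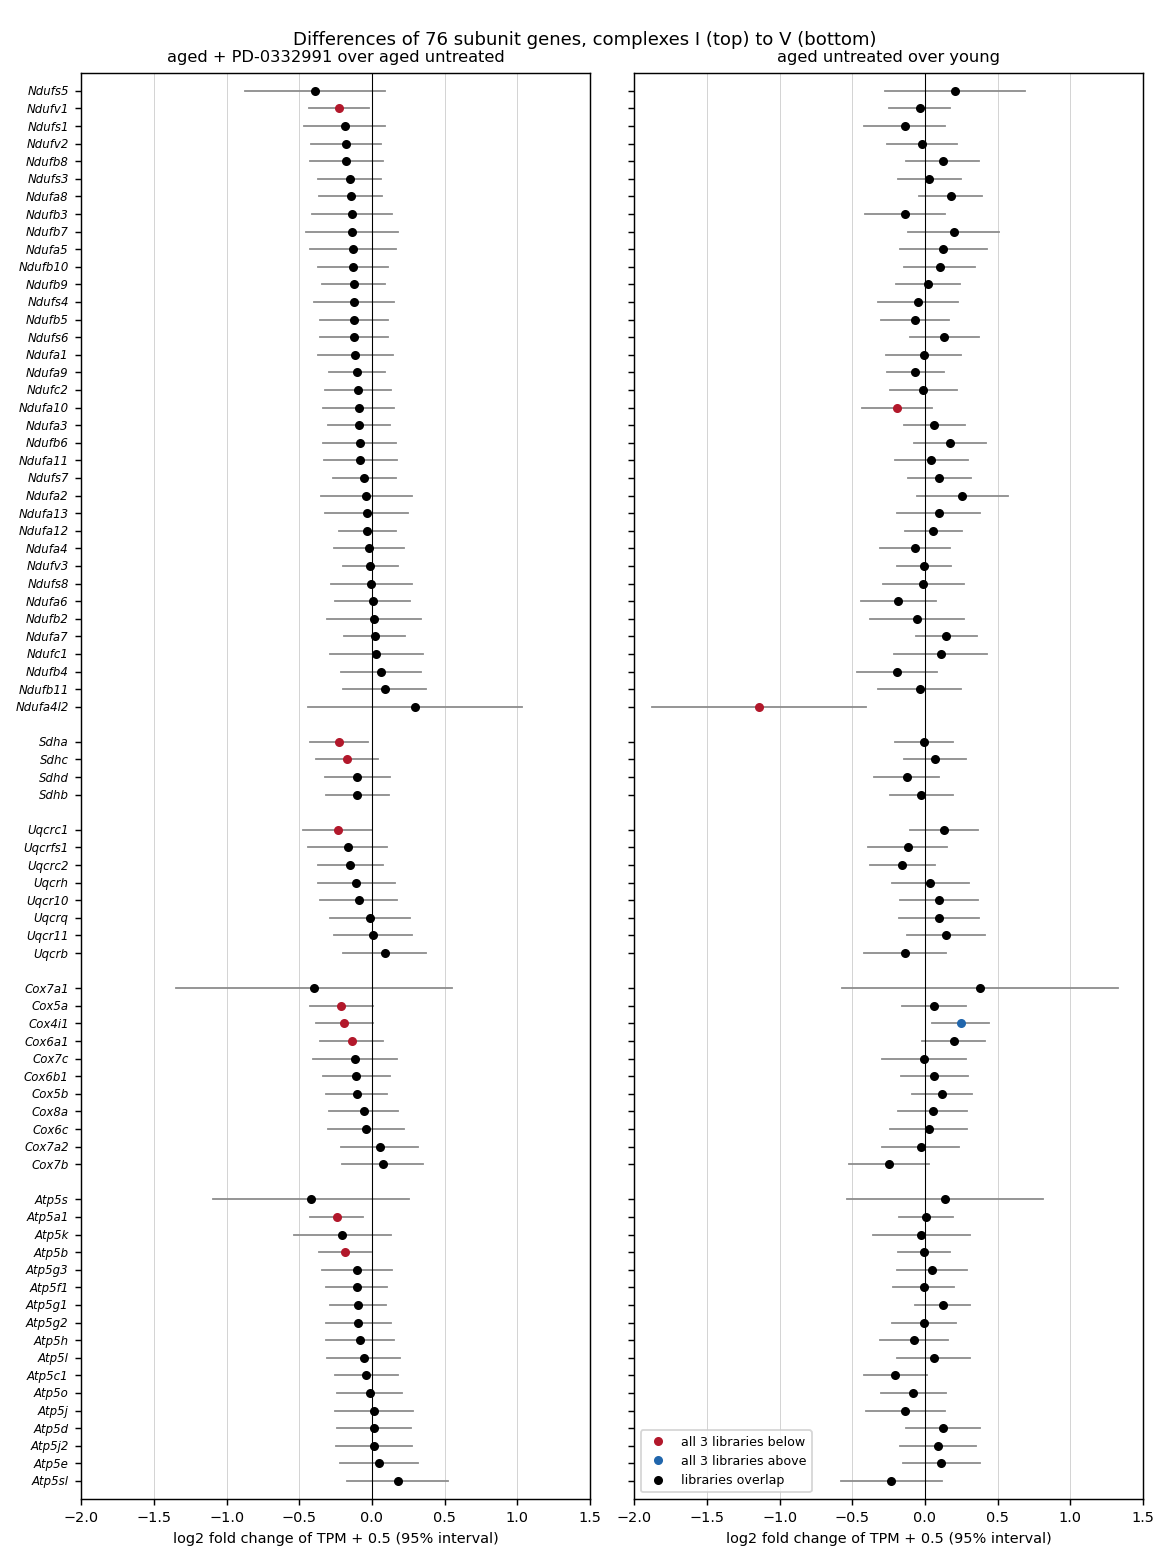
Log2 fold change of TPM + 0.5 with its 95% interval from limma for 76 of the 77 subunit genes, complex I at the top and complex V at the bottom, for treated over aged untreated (left) and aged untreated over young (right). Red points mark genes whose 3 libraries of the first group all lie below those of the second (9 left, 2 right), and blue the 1 gene (Cox4i1, right) whose libraries all lie above.

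Treatment of aged mice with PD-0332991 was compared with no treatment at the same age to see whether the inhibitor moved the chain. No subunit gene passed the test, with 0 of 77 at an adjusted p under 0.05 in limma, against 1.45% of all genes tested. At an unadjusted p under 0.05 there were 5 of 77 (Atp5a1, Sdha, Ndufv1, Atp5b and Uqcrc1), against 18.2% of all genes. The estimates leaned low: 61 of 77 were below 0, and the median log2 fold change over the 77 was -0.10. All genes tested leaned in the same way, with 66.7% below 0 and a median of -0.09. With the libraries rescaled by median-of-ratios factors, which shifts all genes up by 0.10 in this comparison, the medians were 0.01 for the subunits and 0.01 for all genes, and 32 of 77 subunits were below 0, so the direction depends on the scaling. For 71 of the 77 genes the 95% interval lay within 0.5 of 0.

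Every treated library lay below every aged untreated one for 9 of the 77 genes, where 16.7% of all genes tested did so, and 0 of 77 lay wholly above, where 5.72% did. The 9 were Ndufv1, Sdha, Sdhc, Uqcrc1, Cox4i1, Cox5a, Cox6a1, Atp5a1 and Atp5b. With the median-of-ratios factors, 3 of 77 (Sdha, Atp5a1 and Atp5b, all among the 9) lay wholly below, where 9.07% of all genes tested did. Wholly above lay 1 of 77, Ndufv3, where 11.2% did. Fewer cells of a type and less RNA per cell cannot be told apart in these bulk samples.

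In complex I, 30 of 37 estimates were below 0, against 66.7% of all genes tested, with a median of -0.10. Ndufv1, the flavoprotein that takes electrons from NADH (chr19:4007384-4012806, GRCm38), had 89.2, 81.0 and 80.1 TPM in treated and 104, 93.8 and 95.5 TPM in aged untreated livers. Its log2 fold change was -0.23 (SE 0.10, interval -0.44 to -0.02, limma adjusted p = 0.237). The 3 treated libraries all lay below the 3 aged untreated ones. Ndufs1, an iron-sulfur subunit of the same complex, had 32.0 ± 3.88 TPM in treated and 36.5 ± 3.27 TPM in aged untreated livers (SD, n = 3 each), with overlap.

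The lowest estimate in complex I was that of Ndufs5, an accessory subunit with a near-identical pseudogene, with 83.0, 52.0 and 102 TPM in treated and 101, 108 and 92.0 TPM in aged untreated livers (-0.39, SE 0.22, limma adjusted p = 0.365). The second treated library was the lowest of all 9. The highest were those of Ndufa4l2 (0.30, SE 0.33) and Ndufb11 (0.09, SE 0.13). Ndufa4l2, low in aged untreated livers, had 0.848, 2.41 and 1.38 TPM in treated ones, and the groups overlapped.

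In complex II all 4 estimates were below 0, against 66.7% of all genes tested, with a median of -0.14. Sdha, which oxidises succinate (chr13:74322254-74350280, GRCm38), had 121, 116 and 106 TPM in treated and 134, 129.5 and 138 TPM in aged untreated livers (-0.23, SE 0.09, interval -0.43 to -0.03, limma adjusted p = 0.22), with no overlap. Sdhc, a membrane anchor, had 142, 140.2 and 144 TPM in treated and 148, 158 and 176 TPM in aged untreated livers (-0.17, limma adjusted p = 0.373), also with no overlap though by a narrow margin. Sdhb had 185 ± 12.6 TPM in treated and 199 ± 21.1 TPM in aged untreated livers (SD, n = 3 each). Sdhd, the other anchor, had 137 ± 13.6 TPM in treated and 147 ± 7.92 TPM in aged untreated livers, and both genes overlapped between the groups.

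In complex III, 6 of 8 estimates were below 0, against 66.7% of all genes tested, with a median of -0.10. The core protein Uqcrc1 (chr9:108936633-108949623, GRCm38) had 132, 125 and 132 TPM in treated and 149.9, 134 and 176 TPM in aged untreated livers (-0.24, SE 0.11, interval -0.47 to -0.00, limma adjusted p = 0.273). Its treated libraries were close together and below all aged untreated ones, of which the third was the highest. Uqcrfs1, the Rieske iron-sulfur protein, had 164 ± 26.6 TPM in treated and 182 ± 9.82 TPM in aged untreated livers, and the small subunit Uqcrb had 285 ± 32.8 and 269 ± 39.3 TPM in the same order (SD, n = 3 each). Both overlapped. Uqcr11 (0.01) and Uqcrb (0.09) had the highest estimates.

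In complex IV, 9 of the 11 genes tested were below 0, against 66.7% of all genes tested, with a median of -0.11. Cox4i1 (chr8:120668222-120674207, GRCm38) had 708, 765 and 793 TPM in treated and 836, 819 and 931 TPM in aged untreated livers (-0.19, SE 0.09, interval -0.39 to 0.01, limma adjusted p = 0.292). Treated and young libraries of Cox4i1 overlapped (0.06, limma adjusted p = 0.748). The comparisons of aged untreated livers with treated and with young ones share the aged untreated libraries. Cox5a, a matrix-side subunit of the same complex, had 316, 304 and 280.2 TPM in treated and 323, 339.8 and 379 TPM in aged untreated livers (-0.21, limma adjusted p = 0.292). Cox6a1 had 610.2, 619.8 and 607 TPM in treated and 660.5, 626 and 740.1 TPM in aged untreated livers (-0.14, limma adjusted p = 0.49). In all 3 genes the groups did not overlap, and in each the third aged untreated library was the highest. Cox7b (0.08) and Cox7a2 (0.05) were the only 2 of the 11 above 0, and Cox7a1 had the widest interval (-0.40, -1.35 to 0.55).

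In complex V, 12 of 17 estimates were below 0, against 66.7% of all genes tested, with a median of -0.08. Atp5a1, the α subunit of the catalytic head, had the smallest adjusted p of any subunit here: 343, 325 and 325 TPM in treated and 378, 386 and 413 TPM in aged untreated livers (-0.24, SE 0.08, interval -0.43 to -0.06, limma adjusted p = 0.161). Atp5b, the catalytic β subunit (chr10:128083273-128090391, GRCm38), had 481, 457 and 497 TPM in treated and 536, 531 and 564 TPM in aged untreated livers (-0.19, SE 0.08, interval -0.36 to -0.01, limma adjusted p = 0.258). Both groups of both genes were tight and apart. The γ subunit Atp5c1, which turns inside the head, had 216, 197 and 213 TPM in treated and 193, 219 and 234 TPM in aged untreated livers, with overlap. Atp5e also overlapped, with 820.2 ± 21.4 TPM in treated and 799 ± 124 TPM in aged untreated livers (SD, n = 3 each). The extremes of the complex were the scarce Atp5s (-0.42, SE 0.30) and Atp5sl (0.18, SE 0.16).

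**Figure D4:**
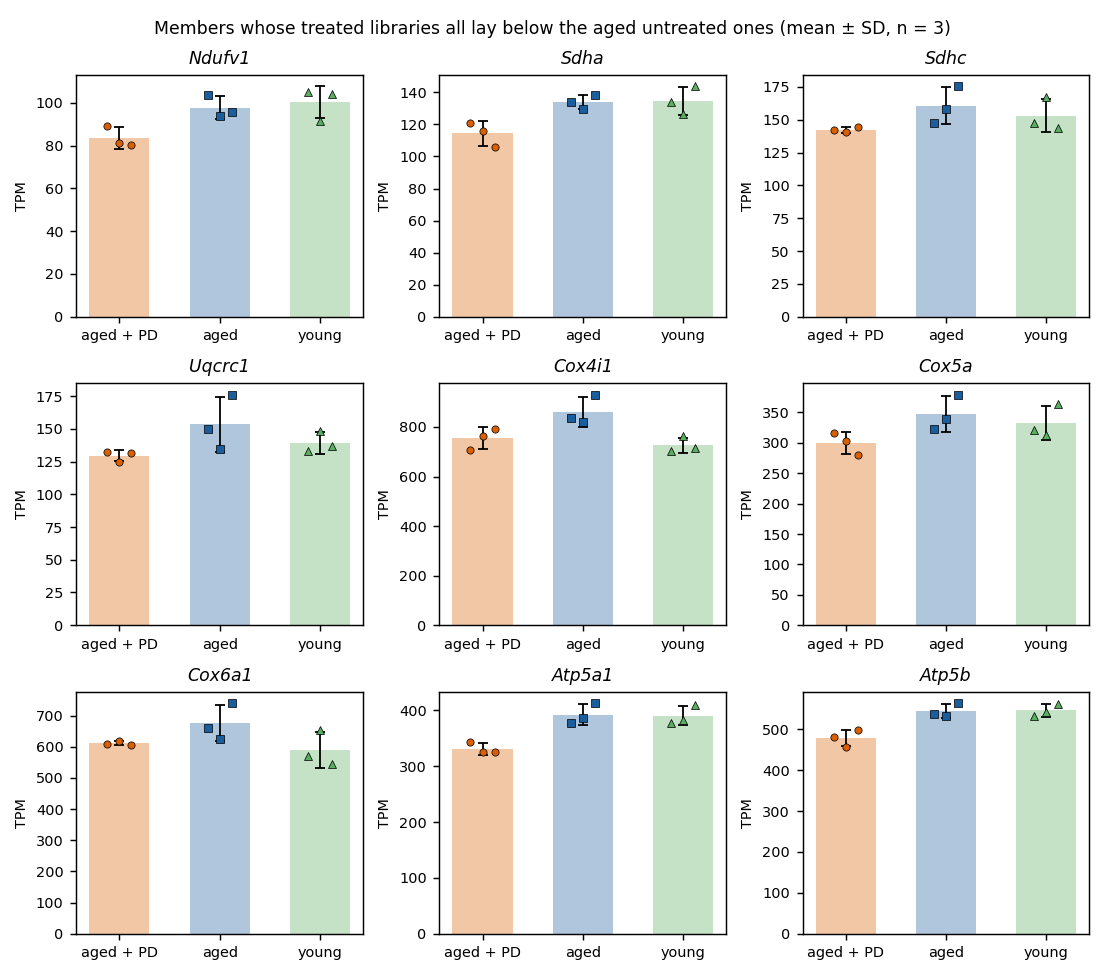
TPM of the 9 genes whose 3 treated libraries all lie below the 3 aged untreated ones, with a point per library, bars for the group means and error bars for the SD (n = 3), in the order treated, aged untreated and young. The gaps are narrow against the height of the bars, as in Sdha with 106 to 121 TPM in treated and 129.5 to 138 TPM in aged untreated livers, and in Cox4i1 and Cox6a1 the young livers lie beside the treated ones.

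Treated aged livers were also set against young ones, which differ in age and drug together. Again 0 of 77 genes passed in limma, against 6.88% of all genes tested, and 11 of 77 had an unadjusted p under 0.05, against 24.8% of all genes. The median log2 fold change was -0.07, beside -0.10 over all genes, and 54 of 77 were below 0, against 64.9% of all genes tested. With the median-of-ratios factors, which shift all genes up by 0.12, the medians were 0.06 for the subunits and 0.02 for all genes, and 24 of 77 were below 0, so here too the direction depends on the scaling. This comparison shares its treated libraries with the drug comparison and its young libraries with the age comparison.

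Every treated library lay below every young one for 11 of 77 genes, where 24.4% of all genes tested did so, and above for 1, Ndufa7, where 9.55% did. The smallest adjusted p belonged to Uqcrc2, the second core protein of complex III, with 117, 107 and 130.4 TPM in treated and 137, 148 and 152 TPM in young livers (-0.30, SE 0.10, interval -0.53 to -0.08, limma adjusted p = 0.0953). Its aged untreated libraries, at 121, 131 and 141 TPM, overlapped those of the treated and of the young group. Ndufv1, Sdha, Uqcrc1, Atp5a1 and Atp5b were also below the aged untreated libraries, and Ndufa9, Ndufa10, Ndufs3, Sdhd and Atp5c1 made up the rest. Ndufa7, an accessory subunit of complex I, had 274, 240.1 and 253 TPM in treated and 229.7, 234 and 219.6 TPM in young livers (0.17, limma adjusted p = 0.308).

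Atp5a1 had 331 ± 10.4 TPM in treated and 390.4 ± 17.2 TPM in young livers, Atp5b 478 ± 20.4 and 546 ± 15.8 TPM, and Sdha 114 ± 7.58 and 135 ± 8.79 TPM in the same order (SD, n = 3 each). Their limma adjusted p-values were 0.112, 0.174 and 0.139. The aged untreated and young means of these 3 genes differed by less than the SD of either group. Atp5c1, which has near-identical pseudogenes, had 216, 197 and 213 TPM in treated and 232, 248 and 263 TPM in young livers (-0.24, limma adjusted p = 0.152), and Sdhd had 149, 122 and 142 TPM in treated and 151, 157 and 174 TPM in young livers. With the median-of-ratios factors 1 of 77, Atp5a1, lay wholly below, where 14.2% of all genes tested did. Under the same scaling 6 of 77 lay wholly above (Ndufa7, Ndufa8, Ndufa12, Ndufb6, Ndufv3 and Atp5e), where 17.3% did.

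The subunits moved together from library to library within the groups. The third aged untreated library had 76 of the 77 genes above their own mean over the 9 libraries (median deviation 0.17 on the log2 scale, against 0.05 for all genes), and the second young library had 65 (0.13, against 0.02). Over all genes encoding up to 150 residues, as 43 of the 77 subunit genes do, the median deviation was 0.14 in the former and 0.08 in the latter library. The second treated library was the lowest, with 12 of 77 above their mean (-0.12, against -0.09). The other 2 libraries of each group lay between -0.07 and 0.02 in their median deviation. Without the third aged untreated library the median drug difference was -0.03 and 45 of 77 genes were below 0. With that library left out, 9 of 77 lay wholly below and 6 wholly above, where 26.9% and 11.4% of all genes tested did.

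The genes were also split by the length of the encoded protein, a grouping chosen after the values were seen. In the drug comparison the median log2 fold change was -0.19 for the 11 genes of over 300 residues, -0.12 for the 23 of over 150 and up to 300 residues and -0.08 for the 43 of up to 150 residues. Over all genes of those lengths it was -0.10, -0.09 and -0.05. All 11 long genes were below 0 in treated over aged untreated livers, where 66.7% of all genes tested were. Of the 11, 5 had no overlap and lay lower, where 18.7% of all genes that long did. With the median-of-ratios factors 8 of the 11 were below 0 (median -0.08), and without the second treated library 9 of 11 were (median -0.10). With those factors Sdha, Atp5a1 and Atp5b still lay wholly below, where 9.07% of all genes tested did. Ndufv1 and Uqcrc1 then overlapped, and the long gene Ndufv3 lay wholly above, where 11.2% did.

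Spearman's rho between residues and log2 fold change over the 77 genes was -0.41 in the drug comparison, -0.43 for treated over young and -0.22 for aged over young, while over the 9422 genes with a coding length it was -0.03, -0.11 and -0.10. These values describe genes that share libraries and are not independent. Within libraries, short and long genes moved apart as well: in the third aged untreated library the median deviation was 0.21 for the short and 0.11 for the long subunits, in the first young library -0.12 and 0.03, and in the third treated library 0.05 and -0.06. Over all genes the short and long classes deviated by 0.14 and 0.02, -0.08 and 0.07, and 0.05 and -0.06 in these 3 libraries. The part of library differences in RNA or transcript length in the group differences was not tested.

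**Figure D5:**
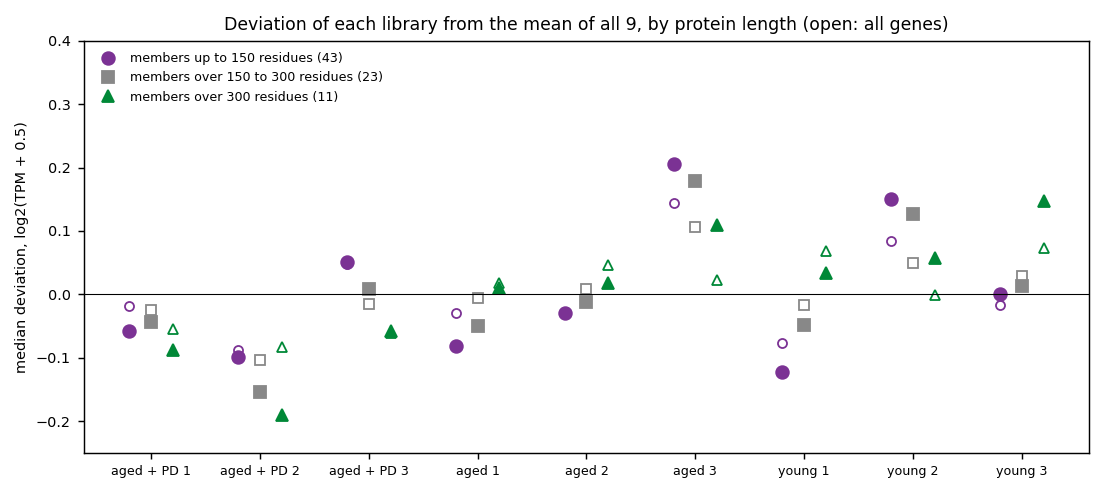
Median deviation of each of the 9 libraries from the mean of all 9, on the log2(TPM + 0.5) scale, for subunit genes encoding up to 150 (purple circles, 43 genes), over 150 to 300 (grey squares, 23) and over 300 residues (green triangles, 11), with open symbols for all genes of those lengths. The long subunits lie below 0 in all 3 treated libraries and above 0 in the other 6. All genes of over 300 residues also lie below 0 in the 3 treated libraries (-0.05, -0.08 and -0.06). They lie above 0 in the others except the second young one (-0.002). The short subunits are highest in the third aged untreated and second young libraries.

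Other genes of the organelle were taken from lists. None of 46 assembly factors, 13 coenzyme Q synthesis genes, 26 import genes and 13 further subunits and carriers (such as Ndufab1, Cyc1 and Cycs) tested passed in any of the 3 comparisons, and of 76 mitochondrial ribosomal protein genes 1, Mrps5, was lower in treated than in young livers (-0.46, limma adjusted p = 0.0318, lost in 9 of 15 alternatives with values up to 0.127). The shares of all genes called were those given above. The median drug differences of these lists were -0.13 for assembly factors, -0.10 for coenzyme Q synthesis, -0.12 for import, -0.18 for the further subunits and -0.12 for the ribosomal proteins, beside -0.10 for the subunits and -0.09 for all genes.

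Of 28 regulators tested, 2 passed in some comparison. Of all genes tested, 1.1% passed for age, 1.45% for the drug and 6.88% for treated against young livers. Esrra, the estrogen-related receptor α, which is known to bind promoters of respiratory chain genes, had 8.09, 7.39 and 7.77 TPM in treated, 14.8, 11.9 and 13.3 TPM in aged untreated livers and 10.8, 12.4 and 10.3 TPM in young livers. It fell with the drug (-0.74, SE 0.12, limma adjusted p = 0.0161) and was lower in treated than in young livers (-0.50, limma adjusted p = 0.0303). The drug call was lost without the second or the third treated library (adjusted p = 0.0728 and 0.0659) and in a fit of the 2 groups alone (0.0501). The call against young livers was lost in 9 of 15 alternatives (adjusted p up to 0.111), among them each library left out in turn. Ppara, the fatty acid receptor, had 20.0, 22.4 and 19.8 TPM in treated, 9.83, 9.83 and 13.8 TPM in aged untreated livers and 21.3, 19.5 and 19.7 TPM in young livers. It rose with the drug (0.88, limma adjusted p = 0.0158), a call lost without the second or the third treated library (0.0728 and 0.0613) and in a fit of the 2 groups alone (0.0514). In aged untreated livers it was lower than in young ones (-0.84, limma adjusted p = 0.0144), a call lost without the first aged untreated library (0.0617) or without the first or second young library (0.0869 and 0.0566). The drug and age comparisons share the aged untreated libraries.

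Of 23 genes of the tricarboxylic acid cycle and pyruvate dehydrogenase, which feed the chain, 2 passed in some comparison. The shares of all genes called were again those given above. Idh3a, the catalytic subunit of the NAD-dependent isocitrate dehydrogenase, had 6.96, 5.57 and 6.14 TPM in treated, 12.2, 12.5 and 11.1 TPM in aged untreated livers and 8.60, 8.53 and 11.7 TPM in young livers. It fell with the drug (-0.89, SE 0.14, limma adjusted p = 0.0161), a call lost with no filter on low values (0.0521) and without the second aged untreated (0.0525) or the second or the third treated library (0.0761 and 0.0659). It was also lower in treated than in young livers (-0.58, limma adjusted p = 0.0325), a call lost in 9 of 15 alternatives, with adjusted p up to 0.127. Fh1, fumarate hydratase, had 171, 169 and 211 TPM in treated, 137, 118 and 134 TPM in aged untreated livers and 113, 118 and 124 TPM in young livers. It was higher in treated than in young livers (0.62, SE 0.11, limma adjusted p = 0.00959), in all 15 alternatives. Against aged untreated livers it did not pass (0.50, limma adjusted p = 0.0512), though it did under 5 of the 15 alternatives.

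Markers of the cell types a liver sample can hold also differed between libraries. The 8 hepatocyte markers summed to 26732 to 30537 TPM in treated, 26571 to 31495 TPM in aged untreated and 30720.0 to 31247 TPM in young livers, and Ttr was called lower in treated than in young livers (limma adjusted p = 0.0357). In that comparison the treated libraries of Tat and Hnf4a lay wholly above the young ones (0.96 and 0.56). Neither passed (limma adjusted p = 0.205 and 0.153), and the median log2 fold change of the 8 markers was -0.07. The 6 Kupffer cell markers listed summed to 42.8 to 51.2 TPM in treated, 51.8 to 77.4 TPM in aged untreated and 57.3 to 93.7 TPM in young livers. Of these markers, 3 of 6 were called lower in treated than in young livers, where 6.88% of all genes tested were called in either direction. The 4 neutrophil markers listed summed to 19.7 to 28.8 TPM, 6.75 to 22.3 TPM and 2.40 to 3.25 TPM in the same order, nearly all of it S100a8 and S100a9, while Ngp and Ltf were listed at or near 0. S100a8 and S100a9 were called higher in treated than in young livers (2.56 and 2.92, limma adjusted p = 0.0099 and 0.0102). The 7 erythroid markers listed summed to 222 to 359 TPM in treated, 291 to 787 TPM in aged untreated and 343 to 369 TPM in young livers. Adipocyte markers summed to 7.95 to 15.3 TPM, 2.75 to 15.8 TPM and 0.735 to 2.68 TPM in the same order, from Cidec and Cidea, with Adipoq and Plin1 listed at 0 in treated and aged untreated livers. Endothelial markers summed to 53.7 to 66.3 TPM in treated, 54.3 to 76.5 TPM in aged untreated and 64.8 to 68.7 TPM in young livers, and stellate cell markers to 41.0 to 58.2 TPM, 44.3 to 62.2 TPM and 55.7 to 65.9 TPM in the same order. Lyve1, 1 of 6 endothelial markers tested, was called lower in aged untreated than in young livers (-1.22, limma adjusted p = 0.0449). It was scarce, at 0.300 to 2.58 TPM over the 9 libraries. In the same comparison Stab2, Clec4g, Fcgr2b, Kdr and Pecam1 lay between -0.09 and 0.04 and did not pass. Col3a1, of the stellate list, was called lower than in young livers both in treated (-1.25, limma adjusted p = 0.00603) and in aged untreated ones (-1.17, limma adjusted p = 0.0186). Sox9, of the cholangiocyte list, was called higher in aged untreated than in young livers (1.03, limma adjusted p = 0.0328). Of the 5 cholangiocyte markers it alone was abundant enough to be tested. Krt19 had 0.582, 0.412 and 0.291 TPM in aged untreated livers and 1.65, 0.815 and 0.990 TPM in young livers. The means of Krt7 and Epcam were also lower in aged untreated than in young livers, and that of Cldn7 was higher. Lymphocyte markers reached at most 7.22 TPM and cholangiocyte markers at most 3.64 TPM in any library. The part of these cells in the subunit values was not tested.

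Some subunit genes cannot be measured cleanly. A near-identical transcript of another gene (at least 95% identity over 150 bases in the GRCm38 annotation) exists for 21 of the 83 genes, with 9 for Atp5l and 4 for Atp5h. Reads could be split between copies where the authors' transcript set held them, so the levels of these 21 genes are uncertain. Of these copies only BC002163, beside Ndufs5, and Gm10012, beside Cox7c, were listed, at 2.30 and 3.68 TPM. Of the 9 genes whose treated libraries lay below the aged untreated ones, 0 had such a copy, and of the 11 set against young livers Ndufs3 and Atp5c1 did.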

How the data were processed

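RNA of 9 mouse liver libraries (3 groups of 3, by the labels) was analysed. The authors deposited 1 table per library of TPM, a length-corrected relative transcript abundance, for 23444 gene symbols. Per the submitters' processing notes, kallisto and the mm10 build were used. Of the kallisto version, the annotation, the strand setting and the summing to genes, nothing is stated in the labels (not given in the sources used here). TPM keeps no sequencing depth, so depth is unknown and no counting error is given. The listed values summed to 53.1% to 57.7% of the TPM scale per library, and 4 rows with ambiguous symbols were left out.

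Genes with at least 1 TPM in at least 3 libraries (10161) were tested with limma 3.58.1 in R 4.3.3 on log2(TPM + 0.5), a scale that understates the change of low genes. All 9 libraries entered 1 fit with group as the only term, a trended and robust variance and two-sided tests, with Benjamini-Hochberg adjustment over all genes and a threshold of 0.05. With 3 libraries against 3, an exact permutation test cannot go below p = 0.1, so none was used for single genes. Fits were tested on simulated data. Other steps used Python 3.11.15, pandas 2.3.3, numpy 2.4.6 and matplotlib 3.10.9.

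Named genes were the highest and lowest of each complex by level, those with the largest differences, those whose groups did not overlap, the alternative subunit forms and the genes called in other mitochondrial lists. Further genes (such as Ndufs1 and Atp5c1) were named for their place in the complex, after values were seen. The subunit genes and lists were chosen with earlier results of these data known. A single subunit gene is counted but not reported by name here, and is left out of the figures that show genes one by one. Positions are from the GRCm38 annotation. Alternatives were other pseudocounts, filters, scalings and weights, a fit of 2 groups, a replicate block and each library left out. Counts without overlap under rescaling and with libraries left out were added after seeing the data.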

Additional observations from a re-analysis of the deposited data

How the results depend on the processing

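The count of subunit genes called was 0 in each comparison under all 15 alternatives per comparison, and all 3459 values of single subunit genes kept their side of the threshold. The count over all genes moved more. For treated over aged untreated livers (147) it was 29 with no filter, 271 with array weights, 35 in a fit of the 2 groups, and 7 to 392 leaving out single libraries (7 without the second treated, 392 without the third aged untreated). For treated over young livers (699) it was 1354 with array weights, 1293 in a fit of the 2 groups and 151 to 473 leaving out libraries. For aged untreated over young livers (112) it was 62, 490 and 49 with no filter, array weights and the 2 groups, and 15 to 696 leaving out libraries (15 without the first young, 696 without the third aged untreated).

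With median-of-ratios scaling the subunits' median was 0.0057 for treated over aged untreated livers and 0.059 for treated over young livers. Non-overlapping subunit genes then numbered 3 lower and 1 higher of 77 for the drug (9.07% and 11.2% of all genes tested), 1 lower and 6 higher for treated over young (14.2% and 17.3%), and 2 lower and 3 higher for age (9.02% and 9.69%). Leaving out a library, which makes separation easier, gave 9 to 24 lower and 0 to 6 higher for the drug (21.01% to 26.9% and 8.13% to 11.4% of all genes tested). It gave 12 to 30 and 1 to 15 for treated over young (28.7% to 33.2% and 12.4% to 13.2%), and 2 to 14 and 1 to 15 for age (12.3% to 21.2% and 12.4% to 18.2%). With the replicate number as a block the drug count over all genes was 60, and 0 subunit genes were called. Same-numbered libraries correlated between -0.22 and 0.17 in their deviations from group means, and differently numbered ones between -0.22 and 0.23. These values gave no sign of pairing by number, but 3 libraries per group are too few to exclude it. Depth is unknown with TPM and limits most the scarce genes, such as Ndufa4l2 and Cox7a1.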
